A study of Mus musculus with 8 samples.

Results

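Aldh1a3, Th, Gucy2c, Dcx, Pappa2, Gal, Cck and Neurog3 are 8 genes linked to altered beta cell identity, among 18193 genes named by at least 1 unambiguous probe set of the array. They were taken by name, with all 14 probe sets whose platform annotation gives one of them, and they were chosen by their strain difference in mean log2 value on these same arrays. That difference is therefore described here without a test. Islets, the hormone-secreting cell clusters of the pancreas, came from AKR/J and C57Bl/6J mice, inbred strains that were both fed a high-fat diet for 3 months. Each strain gave 4 RNA samples, AKR/J being numbered 1 to 4 and C57Bl/6J 5 to 8, and each sample pooled the islets of 2 mice and went to its own Affymetrix mouse expression array. The labels name neither the age nor the sex of the mice. Every mouse carried the genotype of its inbred strain, and all groups used here shared the diet.

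Mature beta cells make insulin and keep silent many genes of progenitors, neurons and gut endocrine cells. Under metabolic load beta cells of mouse models can lose mature features and switch on some of these genes, a process called dedifferentiation. Aldh1a3, which makes retinoic acid from retinaldehyde, is a widely used mark of such cells, and Neurog3 encodes the transcription factor that starts the endocrine lineage in the embryo. The other members are an enzyme of catecholamine synthesis (Th), a receptor (Gucy2c), a neuronal microtubule-binding protein (Dcx), a secreted protease (Pappa2) and the peptides galanin (Gal) and cholecystokinin (Cck).

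The 8 genes did not move as one group. By the brightest probe set of each, 6 had all 4 AKR/J arrays above all 4 C57Bl/6J arrays, Gal lay the other way round, and the strains overlapped for Neurog3. Over all 14 probe sets, 11 had AKR/J above C57Bl/6J with no overlap, 1 had C57Bl/6J above AKR/J and 2 overlapped. Of all 45037 probe sets that are not array controls, 17.6% had AKR/J above and 5.21% had C57Bl/6J above in this way. With the signals of the per-array files, the second measure deposited for each array, 9 of the 14 had AKR/J above, 1 had C57Bl/6J above and 4 overlapped, against 5.78% and 5.99% of all probe sets. Nothing is read from these shares, since this contrast chose the genes. Levels are given as log2 values of the GCRMA intensities, in which 1 unit is a doubling, and a probe set counts as detected on an array where its detection p was under 0.05. The 11 and the 9 both include the Dcx probe set 1418140_at, which was detected on no array. The 11 also include Dcx 1448974_at and the Cck probe set, whose strains lay only 0.01 and 0.03 apart. Cck is also 1 of the 6 genes, although its lowest AKR/J array did not detect it and its per-array signals overlapped.

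**Figure D1:**
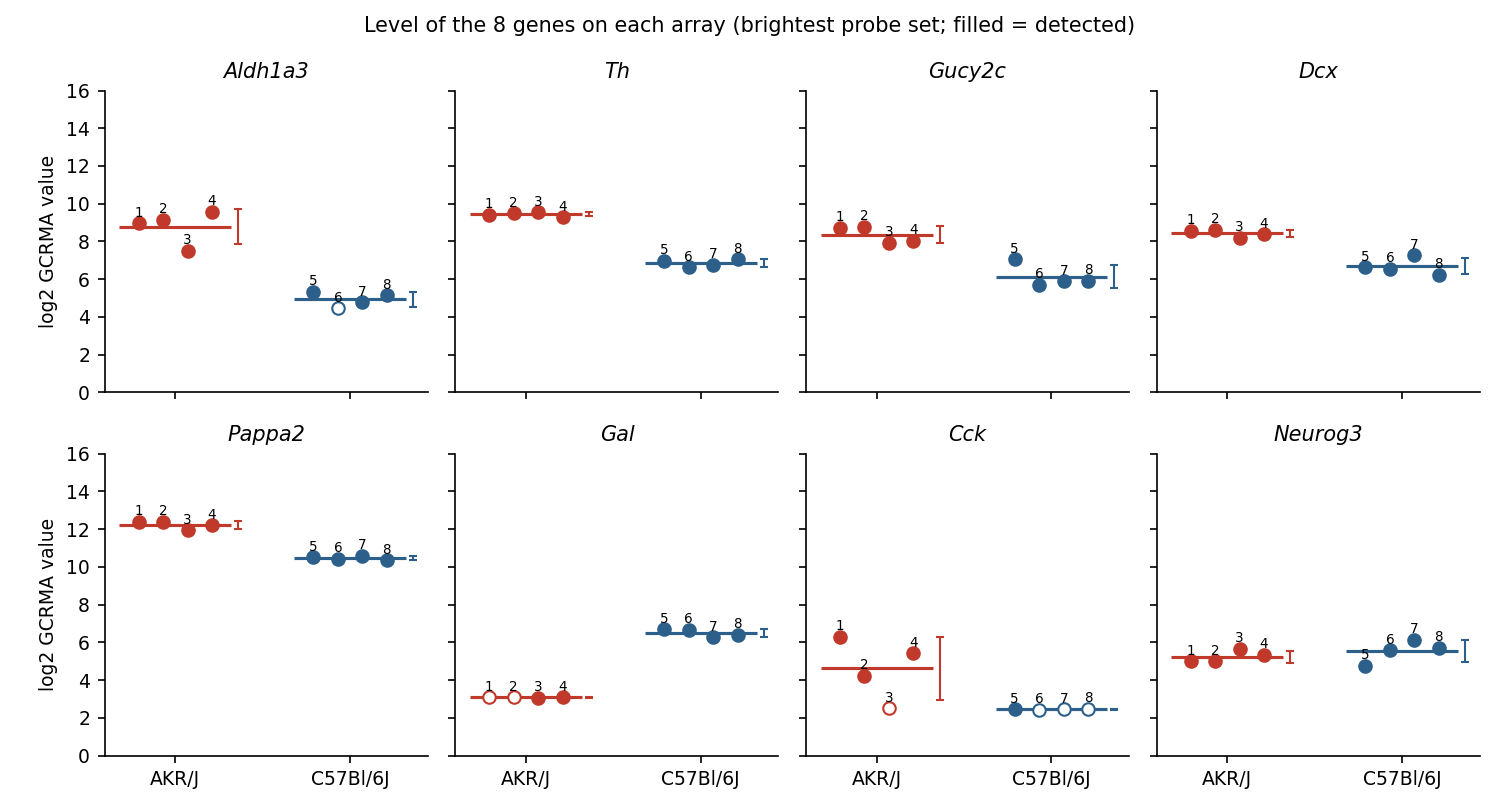
Log2 GCRMA value (vertical axis) of the brightest probe set of each gene on every array, by strain; points carry the array number, filled points are detected, lines are strain means and bars the SD of 4 arrays. AKR/J lies above C57Bl/6J without overlap in 6 panels (for Cck by only 0.03), below it for Gal, and overlaps it for Neurog3.

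The stretch of 250 bases before the annotated start was read for 4 of these genes, to set 3 that were higher in AKR/J (Th, Cck and Pappa2) beside the one that was higher in C57Bl/6J (Gal). The sequences are RefSeq's, build GRCm38.p6, which is the genome of C57Bl/6J and not of AKR/J. They run 5′ to 3′ on the minus strand, at chr7:142899996-142900245 for Th, chr9:121495695-121495944 for Cck, chr1:158958176-158958425 for Pappa2 and chr19:3414545-3414794 for Gal. Capitals mark matches on either strand to TGACG, the core of a cAMP response element, and to CANNTG, the E-box that helix-loop-helix factors such as Neurog3 can bind.
Th: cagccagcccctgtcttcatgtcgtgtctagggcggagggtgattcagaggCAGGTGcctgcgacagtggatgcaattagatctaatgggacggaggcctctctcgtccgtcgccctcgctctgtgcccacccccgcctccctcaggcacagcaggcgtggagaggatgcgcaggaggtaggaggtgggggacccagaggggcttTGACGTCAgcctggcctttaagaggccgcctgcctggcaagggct
Cck: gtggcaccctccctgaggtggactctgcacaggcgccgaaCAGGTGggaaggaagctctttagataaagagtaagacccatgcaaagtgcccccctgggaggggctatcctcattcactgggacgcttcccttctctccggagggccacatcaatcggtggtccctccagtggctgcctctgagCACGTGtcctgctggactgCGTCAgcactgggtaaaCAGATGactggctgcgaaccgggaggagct
Pappa2: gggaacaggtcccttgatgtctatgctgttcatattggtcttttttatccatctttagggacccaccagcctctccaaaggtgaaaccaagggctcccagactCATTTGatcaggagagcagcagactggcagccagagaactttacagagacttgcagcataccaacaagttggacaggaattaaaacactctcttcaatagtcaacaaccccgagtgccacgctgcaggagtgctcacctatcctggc
Gal: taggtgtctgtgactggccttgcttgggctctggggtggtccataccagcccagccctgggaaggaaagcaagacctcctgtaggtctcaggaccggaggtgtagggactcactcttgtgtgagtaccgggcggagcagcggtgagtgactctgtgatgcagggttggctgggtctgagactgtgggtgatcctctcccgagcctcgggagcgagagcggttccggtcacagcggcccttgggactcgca
Th had 2 matches to TGACG that overlap and together spell TGACGTCA, the full palindromic element, at positions -45 to -38 from the start, and 1 E-box at -199 to -194. Cck had 1 TGACG match on the reverse strand at -47 to -43 and 3 E-boxes, at -210 to -205, -66 to -61 and -30 to -25. Pappa2 had 1 E-box and no TGACG, and Gal had neither motif. Of 32851 stretches of the same length in that table, 17.8% held TGACG, 1.55% held TGACGTCA and 66.2% held CANNTG. The entry of Neurog3 held 1 E-box, at -165 to -160, and both entries of Dcx held neither motif but a TATAAA, as did 12.4% of all. Aldh1a3 and Gucy2c had no entry. These matches describe the reference letters and were not set against any measurement of binding.

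Aldh1a3, the retinaldehyde dehydrogenase, was higher on every AKR/J array than on any C57Bl/6J array. Its brightest probe set, 1448789_at, gave log2 values of 8.96, 9.14, 7.49 and 9.58 on AKR/J arrays 1 to 4, and 5.34, 4.45, 4.77 and 5.14 on C57Bl/6J arrays 5 to 8. AKR/J array 3 was the lowest of its strain, yet it lay 2.15 above the highest C57Bl/6J array. The means were 8.79 ± 0.905 and 4.93 ± 0.39 (SD, n = 4 each), a 14.6-fold difference. The transcript was detected on all 4 AKR/J arrays and on 3 of 4 C57Bl/6J arrays, array 6 being the exception. A second probe set, 1417642_at, gave 7.15, 6.96, 5.97 and 7.55 in AKR/J and 4.46, 3.63, 4.08 and 4.70 in C57Bl/6J. It kept the same order of AKR/J arrays apart from arrays 1 and 2, at a smaller difference of 6.47-fold. The third, 1427395_a_at, was detected on 1 AKR/J array, array 4, and on 0 C57Bl/6J arrays. Its means differed 12.3-fold with AKR/J higher, a size that is uncertain because most of its values were undetected in both strains. In the per-array signals the brightest probe set averaged 501 ± 217 and 51.0 ± 18.9 (SD, n = 4 each), a ratio of 9.81.

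Th encodes tyrosine hydroxylase, the rate-limiting enzyme of catecholamine synthesis, which a subset of mouse beta cells is known to express. Its only probe set read 9.43, 9.50, 9.54 and 9.28 in AKR/J and 6.98, 6.63, 6.77 and 7.05 in C57Bl/6J, in array order. The strains were 2.24 apart at their nearest arrays, while the arrays of AKR/J spanned only 0.26 and those of C57Bl/6J 0.41. This was a 5.98-fold difference between means of 9.44 ± 0.11 and 6.86 ± 0.19 (SD, n = 4 each), with detection on all 8 arrays. Signals of 954 ± 39.3 and 203 ± 25.4 gave a ratio of 4.69.

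Gucy2c encodes the membrane guanylate cyclase that guanylin and uroguanylin activate, best known from intestinal epithelium. It was detected on all 8 arrays, at 8.71, 8.79, 7.94 and 8.04 in AKR/J and at 7.07, 5.70, 5.88 and 5.92 in C57Bl/6J. Array 5 stood above the other C57Bl/6J arrays and came within 0.87 of the lowest AKR/J array. The means of 8.37 ± 0.44 and 6.14 ± 0.62 (SD, n = 4 each) differed 4.68-fold, and the mean signals of 441 ± 119 and 147 ± 35.3 differed 2.99-fold.

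Dcx, doublecortin, binds microtubules in migrating young neurons. The brighter probe set, 1418139_at, gave 8.58, 8.61, 8.21 and 8.39 in AKR/J and 6.64, 6.56, 7.26 and 6.24 in C57Bl/6J, with means of 8.44 ± 0.19 and 6.68 ± 0.42 (SD, n = 4 each; 3.41-fold). Array 7 was the highest of C57Bl/6J and still 0.95 below the lowest AKR/J array. A second probe set, 1418141_at, spanned 7.73 to 8.75 in AKR/J while C57Bl/6J spanned 5.76 to 6.49, a 4.41-fold difference. The other two were dim: 1448974_at, detected on 4 AKR/J arrays and 1 C57Bl/6J array, differed 1.35-fold with the strains 0.01 apart, and 1418140_at was detected on none of the 8.

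Pappa2 encodes a secreted metalloprotease that cleaves binding proteins of insulin-like growth factors (IGFs) and so frees IGF. Its probe set gave 12.39, 12.38, 11.95 and 12.20 in AKR/J and 10.51, 10.43, 10.58 and 10.35 in C57Bl/6J, and was detected on all 8 arrays. The means, 12.23 ± 0.21 and 10.47 ± 0.10 (SD, n = 4 each), differed 3.39-fold, and the strains were 1.36 apart at their nearest arrays. In the per-array signals the means of 4428 ± 576 and 1670 ± 111 differed 2.65-fold.

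The peptide genes went in opposite directions. Cck, a peptide of the gut and brain that islets of obese mice are known to express, gave 6.31, 4.24, 2.51 and 5.41 in AKR/J and 2.46, 2.45, 2.45 and 2.47 in C57Bl/6J. AKR/J array 3 lay only 0.03 above the highest C57Bl/6J array, and on it Cck was not detected, while the other 3 AKR/J arrays stood well apart. The means were 4.62 ± 1.64 and 2.46 ± 0.01 (SD, n = 4 each; 4.47-fold), and detection covered 3 AKR/J arrays and 1 C57Bl/6J array. The log2 difference of 2.16 was 2.87 without array 3 and 1.60 without array 1, so its size rests on which AKR/J pools are counted. The per-array signals of the strains overlapped, at 143, 67.6, 17.6 and 95.3 in AKR/J and 15.0, 17.6, 21.4 and 1.5 in C57Bl/6J.

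Galanin restrains insulin release and is otherwise known as a neuropeptide. The probe set of Gal read 3.08, 3.09, 3.07 and 3.09 in AKR/J and 6.70, 6.66, 6.27 and 6.42 in C57Bl/6J. All 4 AKR/J values sat together at the low end and detection succeeded on 2 of those arrays, whereas all 4 C57Bl/6J arrays detected it. The means of 3.08 ± 0.01 and 6.51 ± 0.20 (SD, n = 4 each) made Gal 10.8-fold higher in C57Bl/6J. The signals, 40.1 ± 12.4 and 264 ± 53.4, made it 6.58-fold higher.

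Neurog3 was read by a pair of probe sets. The brighter, 1432034_at, was detected on all 8 arrays, at 4.99, 5.00, 5.67 and 5.33 in AKR/J and 4.76, 5.59, 6.14 and 5.72 in C57Bl/6J. The strains overlapped fully in this range, and the lowest values of both came from arrays 1, 2 and 5. The means of 5.25 ± 0.32 and 5.55 ± 0.58 (SD, n = 4 each) differed by -0.30 on the log2 scale, less than the spread within C57Bl/6J. The other probe set, 1422312_a_at, was detected on 1 of 8 arrays and gave 2.54 to 2.58 throughout.

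**Figure D2:**
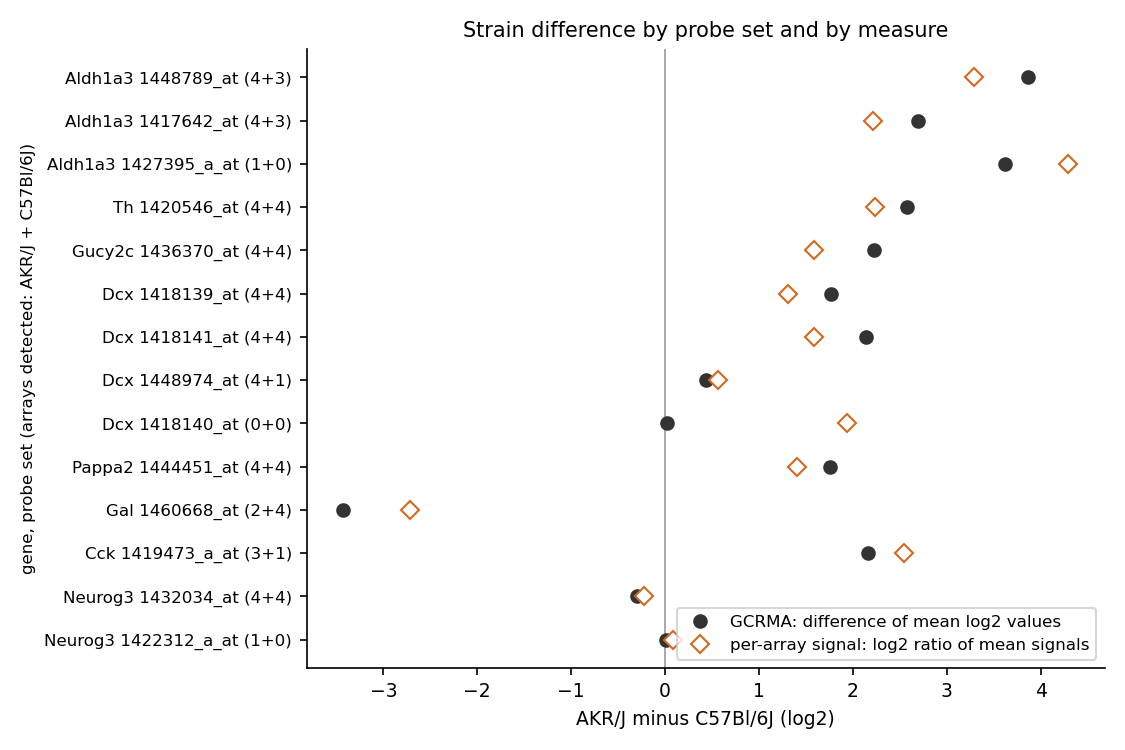
AKR/J minus C57Bl/6J difference (log2, horizontal axis) of each of the 14 probe sets, as the difference of mean log2 GCRMA values (filled circles) and the log2 ratio of mean per-array signals (open diamonds); the numbers in parentheses are the arrays that detected the probe set in AKR/J and in C57Bl/6J. Both measures put Aldh1a3, Th, Gucy2c, Pappa2 and Cck to the right of 0 and Gal to the left, and both lie near 0 for the brighter Neurog3 probe set.

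Within AKR/J the members differed in how evenly the 4 pools expressed them. The SD of Aldh1a3 across AKR/J arrays, 0.905, was above that of 99.7% of the 20772 probe sets tested, and that of Cck, 1.64, above 99.95%, where the median was 0.16. Among probe sets within 0.5 of the same mean level, taken over the arrays of both strains, the percentiles were 99.7 and 99.9. For both genes that level lay below the AKR/J mean, and a comparison matched on the AKR/J level was not made. From the lowest to the highest AKR/J pool Aldh1a3 spanned 4.25-fold and Cck 14.0-fold, whereas Th spanned 1.20-fold and Pappa2 1.36-fold. The median probe set spanned 1.27-fold. In C57Bl/6J the SD of Gucy2c, 0.62, was above that of 97.4% of probe sets and that of Neurog3, 0.58, above 96.7%.

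Array 3 was the lowest AKR/J array for 5 of the 6 genes that were higher in AKR/J, namely Aldh1a3, Gucy2c, Dcx, Pappa2 and Cck, while for Th the lowest was array 4. Over all tested probe sets array 3 was the lowest of AKR/J for 22.3%, and its median departure from the mean of the other 3 arrays was 0.01. The log2 difference of array 3 from that mean was -1.73 for Aldh1a3, -2.81 for Cck, -0.57 for Gucy2c, -0.38 for Pappa2 and -0.32 for Dcx, but 0.14 for Th and 0.56 for Neurog3. On that array the beta cell markers (6 measured, mean log2 value 13.69), the endothelial markers (8.23) and the cell cycle genes (6.90) were at the top of the AKR/J range, and so were all other marker lists except that of macrophages. Without array 3 the count of probe sets with AKR/J above C57Bl/6J was 11. Leaving out an array cannot lower this count, so it does not show whether the separation rests on array 3.

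Between arrays 1 and 2 and arrays 5 and 6 the log2 difference was 4.15 for Aldh1a3, 2.65 for Th and -3.59 for Gal, and between arrays 3 and 4 and arrays 7 and 8 it was 3.58, 2.50 and -3.27. For Cck these were a 7.07-fold and a 2.83-fold difference. Neurog3 was lower on the lower-numbered arrays of both strains, by -0.50 in AKR/J (arrays 1 and 2 minus 3 and 4) and -0.75 in C57Bl/6J (arrays 5 and 6 minus 7 and 8).

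**Figure D3:**
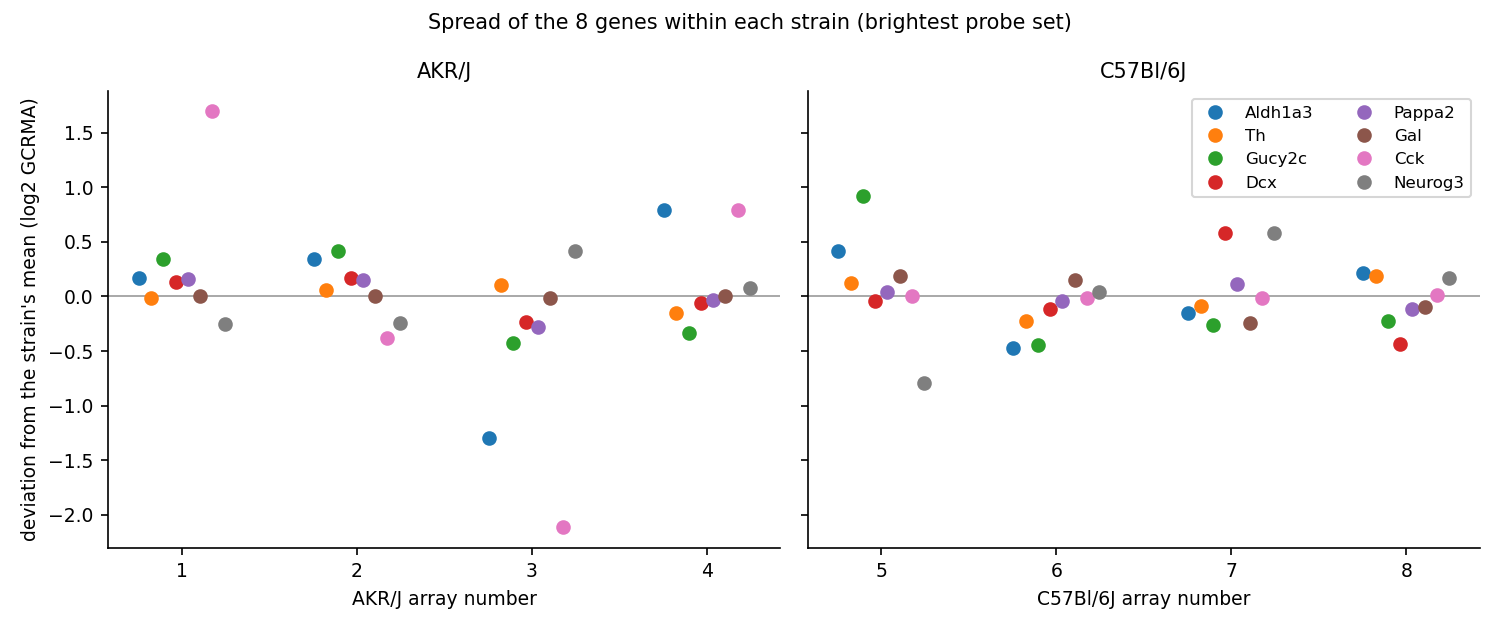
Deviation of each array from its strain's mean (log2 GCRMA, vertical axis) for the brightest probe set of the 8 genes, by array number (horizontal axis), AKR/J at left and C57Bl/6J at right. Cck and Aldh1a3 spread widest in AKR/J with array 3 lowest, and Gucy2c on array 5 is the highest point in C57Bl/6J.

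The genes that work with each member were then tested, from 8 lists of pathway partners. Of 150 genes listed, 137 had at least 1 probe set naming no other gene, and 96 passed the filter of detection on at least 4 of 8 arrays. The fit was limma on all 20772 probe sets passing it, with p-values adjusted by Benjamini-Hochberg over all of them. By the brightest probe set of a gene, 12 of the 96 were higher in AKR/J, 15 were lower and 69 did not pass, which is 28.1% called. Among all 10891 genes tested 16.3% were called, 7.79% higher and 8.53% lower. The median size of the difference was 0.30 over the 96 and 0.19 over all genes. Nothing is read from these shares and sizes, since the lists were chosen with earlier results of these data known. In bulk RNA fewer cells of a type and less RNA per cell cannot be told apart.

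The relatives of Aldh1a3 that could be tested were lower in AKR/J, opposite to Aldh1a3. Of 13 measured genes of retinoid metabolism and signalling 2 rose and 2 fell in AKR/J relative to C57Bl/6J (median log2 difference 0.05, against 0.00 over all genes). Both of the lower ones belong to the Aldh1a family. Aldh1a7 averaged 3.74 ± 0.39 on the AKR/J arrays against 5.95 ± 0.68 on those of C57Bl/6J, a 4.64-fold difference (SD over 4 arrays each, adjusted p = 0.00417 by limma). Aldh1a1 was 2.28-fold lower (adjusted p = 0.0154 by limma), a size that is uncertain because no AKR/J array detected it. Close paralogs such as this pair can share signal. Aldh1a2 was detected on 1 of 8 arrays. Adh1, an alcohol dehydrogenase that oxidises retinol, the step before Aldh1a3, was higher at 12.12 ± 0.11 against 10.86 ± 0.20 (2.40-fold; adjusted p = 0.000285). Ttr, a carrier of thyroid hormone and of the retinol-binding protein, was 1.20-fold higher (adjusted p = 0.0308), a call that was lost without array 1, 2, 4, 5, 6 or 7 (at most 0.0807). Its adjusted p was 0.151 with the per-array signals. Ttr had 4 tested probe sets, and the others did not pass by limma (log2 differences of 0.16, 0.01 and 0.21, adjusted p from 0.118 to 0.9). The induced retinoic acid hydroxylase genes Cyp26a1 and Cyp26b1 were detected on 0 arrays. With the per-array signals Aldh1a1 was not called (log2 difference -0.80, adjusted p = 0.153 by limma).

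Around Th, 1 of 10 measured genes of catecholamine synthesis, storage and breakdown passed, and the median difference was -0.06; at an unadjusted p under 0.05, 2 were higher and 3 lower. It was Gch1, the first enzyme in making the tetrahydrobiopterin cofactor of tyrosine hydroxylase, at 11.15 ± 0.13 and 10.67 ± 0.06 (SD over 4 arrays each), and thus 1.39-fold higher in AKR/J (adjusted p = 0.00655 by limma, but 0.254 with the per-array signals). The second probe set of Gch1 did not pass by limma (log2 difference 0.49, adjusted p = 0.0702). Ddc, which turns DOPA into dopamine, was at 12.76 and 12.83 (adjusted p = 0.693). Dbh, which makes noradrenaline, and the dopamine transporter gene Slc6a3 were detected on 0 arrays, and the vesicle transporter gene Slc18a2 on 2 C57Bl/6J arrays.

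For Gucy2c, neither ligand was detected on any array: Guca2a, guanylin, and Guca2b, uroguanylin. Of 8 measured genes of cyclic GMP signalling 1 was higher and 1 lower (median 0.10). Gucy1b1, a subunit of the soluble guanylate cyclase, was 1.49-fold higher in AKR/J (adjusted p = 0.00355 by limma; 0.769 with the per-array signals). Prkg2, a cyclic GMP-dependent kinase that acts below Gucy2c in intestine, was at least 1.93-fold lower in AKR/J, where it went undetected (adjusted p = 0.00218). The intestinal markers Cdx1, Cdx2, Fabp2 and Lgr5 were detected on 0 arrays, Muc2 on 1 C57Bl/6J array and Lct on 1 array of each strain. Of the 3 intestinal markers measured, Vil1 (2.19-fold) and Olfm4 (1.86-fold) were lower in AKR/J, with the list's summed level at 419 to 571 against 1001 to 1041 in C57Bl/6J. A summed level adds the linear intensities of a list's measured genes on an array, so the brightest genes weigh most.

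Of 15 measured genes of the doublecortin family and the neuronal cytoskeleton, 6 were higher in AKR/J, 0 were lower and 9 did not pass (median 0.21); at an unadjusted p under 0.05, 7 were higher and 0 lower. Stmn1, which destabilises microtubules, averaged 8.73 ± 0.44 on the AKR/J arrays against 7.07 ± 0.24 on those of C57Bl/6J, a 3.16-fold difference (SD over 4 arrays each; adjusted p = 0.00218 by limma). Its relative Stmn3 (1.89-fold), the tubulin gene Tubb2b (1.64-fold; adjusted p = 0.11 with the per-array signals) and the kinase gene Cdk5 (1.34-fold) were higher too, with adjusted p from 0.00372 to 0.00407. The remaining calls, outside the rule for naming, were Mapt, which encodes tau (2.07-fold; adjusted p = 0.0111), and the doublecortin-like kinase gene Dclk1 (1.60-fold; adjusted p = 0.043). Dclk1 lost its call without array 1, 2, 4, 5, 6, 7 or 8. Of 5 measured markers of neurons and Schwann cells 0 passed by limma (1 lower at an unadjusted p under 0.05), with a summed level of 228 to 336 in AKR/J against 309 to 433 for C57Bl/6J. The glial genes Sox10 and Gfap were detected on 0 arrays, and the glial gene S100b on 3 arrays of each strain. Cell cycle genes, which include no member of this list, were higher in AKR/J for 8 of 9 measured (summed level 798 to 1276 against 245 to 459), 6 of them with the per-array signals too and 6 whichever array was left out, and their part in the Stmn1 difference was not tested.

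Around Pappa2, 0 of 12 measured genes were higher and 2 were lower by limma (median -0.08); at an unadjusted p under 0.05 the counts were 2 and 3. Pappa, its paralog, was detected on 0 arrays. Igfals, which holds circulating IGF complexes together, was 1.90-fold less abundant in AKR/J (adjusted p = 0.0115 by limma). Igf1 was 4.59-fold lower by its brightest probe set (adjusted p = 0.00367 by limma). No AKR/J array detected that probe set, so the size is uncertain. The other 3 tested probe sets of Igf1 differed by -0.95, -0.23 and -0.77 with adjusted p of 0.068 to 0.272, and without array 2 or array 8 another became the brightest and the call was lost (adjusted p = 0.156 and 0.134). The call was also lost, and the difference was much smaller, with the per-array signals (log2 difference -0.20; adjusted p = 0.496) and among probe sets detected on all 8 arrays (-0.23; 0.256), where still another probe set was the brightest. Macrophages are a known source of Igf1, and 6 of 8 measured macrophage markers were lower in AKR/J (summed level 1680 to 2175 against 3064 to 4077), of which 5 passed with the per-array signals and 4 whichever array was left out; their part in the Igf1 difference was not tested. Igfbp5, a substrate of Pappa2, was at 7.20 and 6.41 (adjusted p = 0.0502 by limma). It passed with the per-array signals (0.00289) and among probe sets detected on all 8 arrays. It also passed after quantile normalization or median centring, with the trended, robust eBayes and with probe sets averaged (0.0454). With no filter it did not pass.

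Receptors of both peptides were lower in AKR/J. Galr1, the galanin receptor, averaged 7.28 ± 0.11 on the AKR/J arrays against 8.40 ± 0.34 on those of C57Bl/6J, a 2.17-fold difference (SD over 4 arrays each; adjusted p = 0.00337 by limma), the same direction as Gal. Cckar, a cholecystokinin receptor, was at 6.75 ± 0.53 and 8.41 ± 0.33 (3.16-fold; adjusted p = 0.0058), opposite to Cck. The other receptor genes measured on the array, Galr2 and Cckbr, and the gastrin gene Gast were detected on 0 arrays. Cckar is known from acinar cells, and 10 of 11 measured acinar markers were lower in AKR/J, with a summed level of 129743 to 147744 against 211893 to 218566. With the per-array signals 5 of these 10 passed, and Ctrb1 had the opposite sign (0.08; adjusted p = 0.612). Their part in the Cckar difference was not tested. Of the 11 measured genes of this list 1 was higher and 4 were lower (median 0.01), the others being Npy (1.35-fold lower; adjusted p = 0.0392), Penk (1.85-fold lower; 0.0408) and, outside the rule for naming, Tac1 (1.58-fold higher; 0.05 after rounding). These 3 calls were lost on leaving out most single arrays, Npy in all but array 5 (adjusted p up to 0.099), Penk in all but arrays 1 and 8 (up to 0.102) and Tac1 in every case. With the per-array signals Npy (0.0877) and Penk (0.0616) did not pass either. Tac1 did pass by limma with those signals (log2 difference 1.56, adjusted p = 0.0011), but not with its probe sets averaged (0.108). The processing enzymes Pcsk1 (11.33 and 11.10; adjusted p = 0.132) and Cpe (14.38 and 14.36; adjusted p = 0.906) did not pass.

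Of 17 measured transcription factors of endocrine progenitors and islets, 1 was higher in AKR/J and 4 were lower (median -0.26). Ptf1a averaged 5.23 ± 0.33 on the AKR/J arrays against 7.61 ± 0.40 on those of C57Bl/6J, a 5.22-fold difference (SD over 4 arrays each; adjusted p = 0.000432 by limma). It is the factor of acinar cells and 1 of the 11 acinar markers whose levels are given beside Cckar, and their part in its difference was not tested. Neurod1, a direct target of Neurog3, was 1.25-fold lower (adjusted p = 0.0338). Runx1t1 was 1.40-fold lower (0.0388), and Hes1, the Notch target that represses Neurog3, 1.40-fold higher (0.0482). Foxa2, outside the rule for naming, was 1.25-fold lower (0.0496). These 4 calls were lost without array 2, 4, 5 or 6, and without array 1 (all but Hes1), 7 (Hes1) or 8 (all but Neurod1), with adjusted p up to 0.122. With the per-array signals they did not pass either. Other factors around Neurog3 gave no call, among them Insm1 (12.00 and 12.31; adjusted p = 0.297), Nkx2-2 (10.09 and 9.86; 0.557), Pdx1 (11.09 and 10.68; 0.169) and Foxo1 (7.84 and 7.79; 0.816). Pax4, another Neurog3 target, was detected on 0 arrays.

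Of 10 measured progenitor and pluripotency genes that serve as marks of dedifferentiation, 2 were lower in AKR/J and 0 higher by limma (median -0.23); at an unadjusted p under 0.05 the counts were 4 and 0. They were Prom1, at 9.24 ± 0.15 and 10.63 ± 0.16 (SD over 4 arrays each; 2.63-fold; adjusted p = 0.000139 by limma), and Gata6 (2.34-fold; adjusted p = 0.0118). The second probe set of Gata6 did not pass by limma (log2 difference -0.59, adjusted p = 0.0757). Prom1 and Gata6 are also known from duct and acinar cells, whose part in these differences was not tested. Of 2 measured duct markers Tspan8 was lower in AKR/J (2.90-fold, adjusted p = 0.000194 by limma). Krt7 differed by 0.23 the other way (adjusted p = 0.0779), and the list's summed level was 1400 to 1603 against 1336 to 1524. The mean of their log2 values went the other way, at 8.26 to 8.60 in AKR/J against 8.92 to 9.13. Pou5f1 and Nanog were detected on 0 arrays, and Mycl on 2 C57Bl/6J arrays. Of the 6 measured beta cell markers, 0 were higher and 2 were lower in AKR/J, the glucose transporter gene Slc2a2 (1.47-fold; adjusted p = 0.0152) and the maturity marker Ucn3 (1.43-fold; adjusted p = 0.00559; 0.389 with the per-array signals); at an unadjusted p under 0.05, 2 were higher and 4 lower. The summed level of the beta cell list was 131068 to 138845 in AKR/J against 124994 to 132093, most of it from Ins2 and Iapp. The mean of the log2 values of the 6 genes was lower in AKR/J without overlap, at 13.57 to 13.69 against 13.76 to 13.88. Among the other islet hormones Ppy, the marker of PP cells, was 1.86-fold higher in AKR/J (adjusted p = 0.034), a call lost without array 1, 2, 3, 6, 7 or 8 (up to 0.0841) and with no filter. Higher too was Ttr, given above, of 3 alpha cell markers, and 0 of 3 delta cell markers passed by limma, nor did any at an unadjusted p under 0.05. Endothelial markers were higher for 4 of 7 (summed level 2585 to 3192 against 2160 to 2527), but with the per-array signals only Ramp2 of these 4 passed (adjusted p of 0.0605 for Cdh5, 0.16 for Tek and 0.196 for Esam). Tek also lost its call without array 1, 3 or 4 (up to 0.0562).

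**Figure D4:**
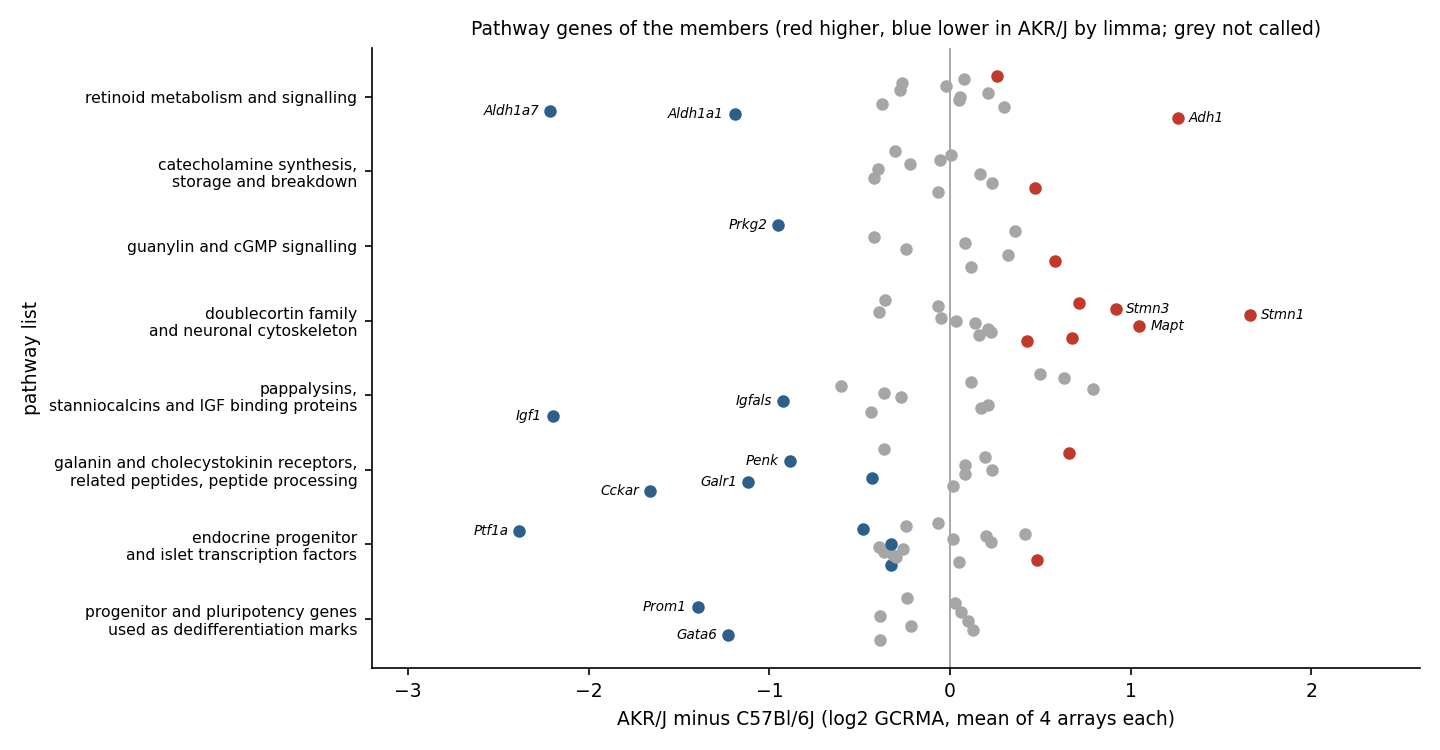
AKR/J minus C57Bl/6J difference (log2 GCRMA, horizontal axis) of the 96 measured partner genes in 8 lists (vertical axis), by the brightest probe set; red points were higher and blue points lower in AKR/J by limma with adjusted p under 0.05, grey points did not pass. The cytoskeleton list has 6 red and 0 blue points, and the list of progenitor genes has 0 red and 2 blue points.

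The genes most like each member over the 8 arrays were those with the smallest root mean square difference between log2 values centred on their means. For Aldh1a3 these were Apof (0.33), 6330403K07Rik (0.41) and Tmem87a (0.51), and all 3 were also lowest on array 3 among the AKR/J arrays. Nearest to Cck were Csn3 (0.52), Dnah9 (0.81) and Slc35f4 (0.82), again lowest on array 3. Csn3 gave 6.30, 5.51, 3.37 and 6.34 on AKR/J arrays 1 to 4 and was detected on 0 C57Bl/6J arrays. Th was nearest to Ppp2r2c (0.18), Vgf (0.22) and Cuedc1 (0.23), and Gucy2c to Derl3 (0.30), Ckb (0.33) and Vgf (0.33). Dcx was nearest to Higd1b (0.13), Vcpkmt (0.18) and Casq2 (0.18), Pappa2 to Tmco6 (0.17), Rasgrf2 (0.18) and Capsl (0.18), and Gal to Mndal (0.12), Klk1b5 (0.26) and Stk25 (0.26). For Neurog3 St8sia4 (0.17), Jade2 (0.19) and Ddb2 (0.19) came first. Apart from the neighbours of Neurog3, each of these genes differed between the strains by at least 1.46 on the log2 scale, in the direction of its member. That direction, and the low values on array 3, follow largely from choosing genes by likeness over these same arrays. Neither is a separate result.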

How the data were processed

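Islet RNA of 4 pools per strain, each of 2 mice, was measured on 8 Affymetrix arrays; strain came from the titles, and array numbers are not shared between strains. The authors' value table gives linear intensity from GCRMA, according to the labels and the submitters' processing notes (version not given in the sources used here). GCRMA corrects background by probe sequence and normalizes across arrays, so undetected probe sets gather at a floor. Values were log2-transformed here. The deposited per-array files hold an intensity signal and a detection p-value per probe set, per the file headers; detected means a p under 0.05. Columns matched the per-array files of their samples by deviations from probe set means (r at least 0.676, against at most 0.496 for other pairs).

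After removal of 64 controls from 45101 probe sets, GEO's platform annotation, updated through RefSeq (GRCm38.p6; 34741 matched), gave 1 gene for 34945, several for 932 and none for 9160; the last kinds were tested but not named. limma's lmFit and eBayes were run on 20772 probe sets, those that 4 or more of the 8 arrays detected, with Benjamini-Hochberg adjustment over all of them, calls under 0.05, and checked on simulated data. A gene is its brightest tested probe set. Where no array of the dimmer strain detected a probe set, the fold is the plain difference of means, and its size is uncertain. A bound from the lowest detected value of each array lay below the dim values and changed no fold given here. The p-values set the strain difference against the spread between pools of a strain, a spread that eBayes estimates partly from all tested probe sets. The number of pools limits the precision. Detection ran from 43.7% to 48.1% of probe sets per array. The files give no date or batch and no AKR/J sequence, so a mismatch under a probe was not tested.

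The members and lists were chosen with earlier results of these data known. Named were all member probe sets; up to 4 called genes of each list by smallest p (or the brightest 2); and the 3 genes nearest to each member. Undetected and uncalled partners were named for their known role, after their values were seen. Alternatives were: filters (none, or all 8 arrays detected); the per-array signals, floored at the 5th percentile and quantile normalized; quantile normalization or median centring of the GCRMA values; a trended, robust eBayes; averaging a gene's probe sets; leaving out each array; and arrays 1, 2, 5 and 6 or 3, 4, 7 and 8 alone. R 4.3.3, limma 3.58.1, Python 3.11.15 and matplotlib 3.10.9 were used.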

Additional observations from a re-analysis of the deposited data

Results flagged for a closer look

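Gucy2c on C57Bl/6J array 5, at a log2 value of 7.07, stood apart from the other arrays of its strain, at 5.70 to 5.92: the gap to the nearest was 0.837 of the whole range, above Dixon's 95% critical value for 4 samples. It was the only one among 28 groups of 4 arrays examined, and chance flags about 1 in 20 such groups.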

How the results depend on the processing

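All 8 member differences kept their direction under every alternative run. The members were chosen by this difference on these same arrays, so the kept direction is not separate support. With the per-array signals several were smaller: 2.24 for Th, 1.58 for Gucy2c, 1.35 for Dcx, 1.38 for Pappa2 and -2.73 for Gal, against 2.58, 2.23, 1.77, 1.76 and -3.43; the cause was not tested. Gal was -3.59 with arrays 1, 2, 5 and 6 alone and -3.27 with arrays 3, 4, 7 and 8 alone. With one array left out, Aldh1a3 ran from 3.60 to 4.30, Cck from 1.60 to 2.87 and Neurog3 from -0.57 to -0.11. Partner genes called lower in AKR/J numbered 15, but 8 with the per-array signals and 9 to 14 with one array left out, the fewest without AKR/J array 2. Those called higher numbered 12, and 8 to 11 with one array left out. With 2 arrays per strain the counts were 3 higher and 5 lower on arrays 1, 2, 5 and 6, and 1 and 4 on arrays 3, 4, 7 and 8, where fewer samples were fitted. The member probe sets with AKR/J above C57Bl/6J numbered 8 to 12 across alternatives, a count that leaving out an array cannot lower. Signals near background limit the size of the differences for Aldh1a3, Cck and Gal. No paired analysis was possible because the strains share no sample number.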
